A study of Bos taurus with 90 samples.

Results

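GIMAP4 (ENSBTAG00000046257) and LOC768255 (ENSBTAG00000039928) are 2 of the 24616 genes counted in 90 liver RNA-Seq libraries from steers. Both were chosen by measured values: their level differed between low and high RFI Charolais steers on the later high-concentrate diet, and it varied widely between animals in earlier results of these data. RFI, residual feed intake, is the difference between the feed an animal eats and the intake predicted from its weight and growth, so a low RFI steer is the more efficient animal. Their values in that one contrast, and the width of their spread, are therefore given below as descriptions without a test. There were 43 libraries of Charolais animals (CH) and 47 of Holstein-Friesian animals (HF). Biopsies were taken after a high-concentrate phase (H1), a zero-grazed grass phase (ZG) in which fresh cut ryegrass was brought to the animals, and a later high-concentrate phase (H2). The ration of H1 and H2 was mainly rolled barley (860 g/kg), with soya bean meal and molasses at 60 g/kg each and a mineral and vitamin mix at 20 g/kg, beside a small allowance of grass silage. The 12 groups were 9 low and 11 high RFI CH under H1, 3 and 3 under ZG, and 9 and 8 under H2, and 7 low and 9 high RFI HF under H1, 10 and 8 under ZG, and 5 and 8 under H2. All steers were bought from commercial herds and passed through the phases in the same order, so that diet and age cannot be told apart, and RFI groups were set anew in each phase. No age at biopsy and no pedigree or genotype was used here.

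GIMAP proteins, the GTPases of immunity-associated proteins, are GTP-binding proteins made mostly by lymphocytes and other leukocytes, where members of the family act in the survival and homeostasis of T and B cells. Their genes sit side by side in a tandem cluster in mammals. GIMAP4 is best known from T cells, where it has been tied to the pace of cell death. LOC768255 has no approved symbol. In the gene order of the ARS-UCD2.0 reference, which is a later build than the UMD3.1 genome of the counts and from which no position was taken, LOC768255 lay in the same GIMAP cluster as GIMAP4. There were 6 genes between them, most of them pseudogenes, and GIMAP6 was the next gene after LOC768255. Members of such a cluster can resemble each other closely in sequence, and the counts hold only reads that mapped to 1 place, so reads shared between near copies are missing from both genes.

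Reads counted on genes ranged from 9097695 to 63621304 per library with a median of 18858293. FGA, the fibrinogen alpha chain made by hepatocytes, was at 5526 CPM (read counts scaled to the size of the library) or more in every library, and it was the only 1 of 105 listed cell type markers with a name in the files, so 10 marker lists could not be summed. Of 15 steer numbers with libraries in more than 1 phase, 14 stayed within a breed. Libraries of a steer number were compared over the 50 most variable other genes, with breed and phase means removed. Among pairs of different steers the 95th percentile of r was 0.298. Number 1797 is CH under H1 and HF under H2, and its libraries had an r of 0.05. Number 5612, HF under ZG and H2, had an r of 0.31. All the other pairs lay between 0.46 and 0.85. Several of the results that include 1797 or 5612 are given with and without them. The permutation tests between groups were run only with them.

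In 10 of the 12 groups of the same breed, diet and RFI status, both genes spanned at least a 14.95-fold range, and in the other 2, low RFI CH under ZG and under H2, at most a 3.06-fold range. GIMAP4 ranged from 4.52 to 702 CPM with a median of 82.8 CPM, a 155-fold range, resting on 50 to 22928 reads. LOC768255 ranged from 1.46 to 675 CPM with a median of 58.2 CPM, a 461-fold range, resting on 31 to 20807 reads. After removal of the 12 group means, the standard deviation of log2 CPM was 1.79 for GIMAP4 and 2.16 for LOC768255, where the median over 13945 genes was 0.388. These were the 46th and 23rd widest spreads of the 13945 genes (rank 46 and rank 23). The ranks depended on the prior count, the small count added before the log: with 0.5 in place of 2 they were 127 and 47. Among 1695 genes within 0.5 log2 CPM of its mean level LOC768255 had the widest spread (rank 1), and GIMAP4 was at rank 2 among 1230. The rank correlation of the level with read depth was near 0 (Spearman rho 0.05 for GIMAP4 and 0.06 for LOC768255 over 90 libraries, description). Libraries below the gap described next had 9134700 to 37835024 reads.

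The values fell apart into separate clusters. For LOC768255, 32 libraries lay between 0.64 and 3.15 log2 CPM, none lay in the next 2.21 log2 units, and 58 libraries lay from 5.36 up to 9.40. The same 32 libraries were the 32 lowest for GIMAP4, at 2.21 to 4.67 log2 CPM, with the other 58 from 5.68 up to 9.46, so that the GIMAP4 gap was narrower at 1.02. Among the 58 libraries above the gap, LOC768255 showed a smaller break of 0.53 log2 units. It left 32 libraries at 41.0 to 118 CPM and 26 at 169 to 675 CPM. GIMAP4 had no clean break there, with 51.3 to 165 CPM in the former 32 libraries and 161 to 702 CPM in the latter 26.

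**Figure D1:**
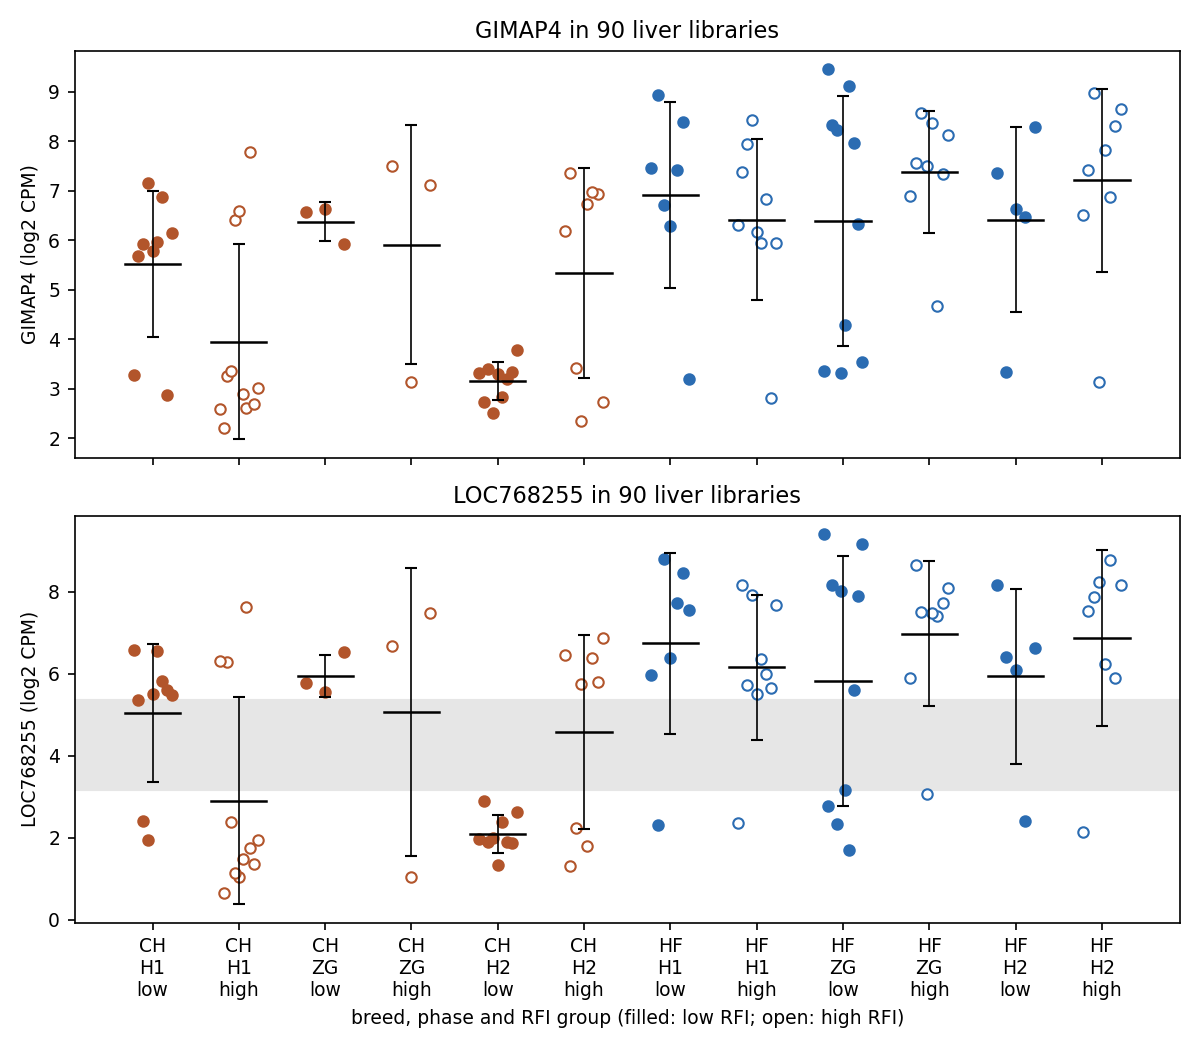
Log2 CPM of GIMAP4 (top) and LOC768255 (bottom) in each of 90 liver libraries, by breed, phase and RFI group; points are libraries, bars the group mean and its SD, and the grey band the empty gap of LOC768255. The band from 3.15 to 5.36 log2 CPM holds no library, and every group but 2 has libraries on both sides of it.

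Both sides of the gap were filled in both breeds and in every phase. In CH, 23 of 43 libraries lay below the gap, and in HF 9 of 47. Counted once per steer number by its earliest library, 19 of 36 CH and 8 of 37 HF steers lay below it. The cluster of 26 libraries with the highest LOC768255 held 2 of 43 CH and 24 of 47 HF libraries. Within CH, the libraries below the gap were 10 of the 20 of H1, 1 of the 6 of ZG and 12 of the 17 of H2. Within HF, these counts were 2 of 16, 5 of 18 and 2 of 13.

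Values within the CH groups show how the clusters were shared out. Under H1, GIMAP4 was at 7.21 CPM in the lowest, 60.3 in the median and 142 in the highest of 9 low RFI steers, and at 4.52, 8.01 and 221 CPM in 11 high RFI steers. LOC768255 was at 3.78, 45.7 and 95.8 CPM in the low RFI and at 1.46, 3.29 and 197 CPM in the high RFI steers. The ranges overlapped fully, with 2 of 9 low RFI and 8 of 11 high RFI steers below the gap. Under ZG, the 3 low RFI steers had 60.9, 94.7 and 99.6 CPM of GIMAP4, and the 3 high RFI steers 8.70, 138 and 180 CPM. LOC768255 stood at 46.6, 54.7 and 92.1 CPM in the low RFI and at 1.97, 103 and 180 CPM in the high RFI steers of ZG. A high RFI steer, number 307, was thus far below the other 5 libraries of that phase.

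Under H2, the contrast that chose the genes, all 9 low RFI CH steers lay below the gap, with GIMAP4 at 5.64, 9.71 and 13.6 CPM (lowest, median and highest) and LOC768255 at 2.41, 3.83 and 7.38 CPM. The 8 high RFI steers ranged from 4.99 to 165 CPM of GIMAP4, with a median of 89.3, and from 2.37 to 118 CPM of LOC768255, with a median of 54.4. Of these 8 steers, 3 were below the gap, inside the range of the low RFI animals or lower, and 5 were above it. This sharing was the reverse of that under H1, where most steers below the gap had a high RFI, and the difference between the phases was not tested. Numbers 1100, 1320, 307 and 364 have libraries in both phases, and 1100 and 307 changed RFI group between them. The lowest GIMAP4 level above the gap in the whole series was 51.3 CPM and the highest below it 25.3 CPM.

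HF steers were mostly above the gap in each group. Under H1, GIMAP4 was at 9.12, 172 and 493 CPM (lowest, median and highest) in 7 low RFI steers and at 6.90, 79.2 and 343 CPM in 9 high RFI steers. LOC768255 was at 4.87, 188 and 448 CPM and at 5.01, 63.9 and 288 CPM in the same groups. Exactly 1 steer of each group was below the gap. Under ZG, the 10 low RFI steers had 9.91, 166 and 702 CPM of GIMAP4 and 3.14, 143 and 675 CPM of LOC768255, and the 8 high RFI steers 25.3, 184 and 378 CPM and 8.27, 180 and 402 CPM. Below the gap were 4 low RFI steers and 1 high RFI steer in that phase. Under H2, the 5 low RFI steers had 9.98, 88.8, 99.0, 164 and 312 CPM of GIMAP4 and 5.18, 68.2, 85.3, 99.2 and 287 CPM of LOC768255. The 8 high RFI steers of H2 had 8.73, 199 and 506 CPM of GIMAP4 and 4.33, 210 and 436 CPM of LOC768255, so both groups spanned the gap.

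The RFI effect was then tested in the 5 comparisons that had not chosen the genes, as low over high RFI. The CH comparisons are not fully independent of that choice. Steers 1100, 1320, 307 and 364 of H1, and 307 of ZG, also have H2 libraries in the contrast that chose the genes. Tests of breed, phase and interaction with these CH libraries share those steers too. In these fits with edgeR's quasi-likelihood test, neither gene passed an adjusted p of 0.1. In CH under H1 the log2 fold change was 0.63 ± 0.79 (SE) for GIMAP4 (adjusted p = 0.792) and 0.52 ± 0.94 for LOC768255 (adjusted p = 0.862), where edgeR called 0.0155% of 12920 genes. The fold change of edgeR follows mean counts, and the difference of mean log2 CPM was larger, 1.57 for GIMAP4 and 2.13 for LOC768255 (exact permutation test, two-sided p = 0.0628 and 0.0517, adjusted over 14 tests 0.220 for both). Without steer 1797 the edgeR values were 0.67 and 0.54, not called. In CH under ZG the log2 fold change was -0.34 ± 0.91 for GIMAP4 (adjusted p = 0.845) and -0.54 ± 1.18 for LOC768255 (adjusted p = 0.808), whereas mean log2 CPM differed by 0.46 and 0.87 in the opposite direction (exact permutation p = 1 for both, with 0.1 the smallest p that 3 against 3 allows). Without steer 437, the edgeR value turned to 0.22 and 0.31.

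In HF the RFI differences of both genes were within the spread of the animals as well. Under H1 the log2 fold change was 0.61 ± 0.70 for GIMAP4 (adjusted p = 0.896) and 0.74 ± 0.77 for LOC768255 (adjusted p = 0.874). Under ZG it was 0.11 ± 0.75 and 0.17 ± 0.88 (adjusted p = 1.00 for both by edgeR), while mean log2 CPM was lower in low RFI steers by 0.98 and 1.16 (exact permutation p = 0.333 and 0.353), and without steer 5612 the edgeR values were 0.06 and 0.14. Under H2 it was -0.77 ± 0.81 and -0.86 ± 0.90 (adjusted p = 1.00 for both by edgeR). Leaving out steer 1797 moved these H2 values to -1.33 and -1.60, and leaving out steer 5612 moved them to -0.47 and -0.55, with no call either way. The 95% intervals were wide, for instance from -0.92 to 2.18 for GIMAP4 in CH under H1, so RFI differences of several fold were not detectable with these animals. edgeR called 0% of the genes in CH under ZG and in each of the 3 HF comparisons. At an unadjusted p under 0.05 it found 1755 genes in CH under ZG and 863, 261 and 435 in HF under H1, ZG and H2, and DESeq2 called 158, 26, 2 and 5 genes.

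The difference of the RFI effect between breeds, CH minus HF, was 0.03 ± 1.10 for GIMAP4 and -0.22 ± 1.27 for LOC768255 under H1 (edgeR interaction, adjusted p = 0.994 and 0.972). Under ZG it was -0.46 ± 1.46 and -0.71 ± 1.76 (edgeR adjusted p = 0.873 and 0.834), and -0.40 and -0.68 without steer 5612. edgeR called 0% of 13454 and 0% of 13406 genes in these interactions, with 1271 and 766 at an unadjusted p under 0.05 and with 30 and 0 called by DESeq2.

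Both genes had a lower mean log2 CPM in CH than in HF in all 3 phases. Under H1, GIMAP4 was at 51.8 ± 58.3 CPM (SD, n = 20) in CH and 157 ± 135 CPM (n = 16) in HF, and LOC768255 at 40.6 ± 50.0 and 149 ± 132 CPM. The groups overlapped, with 10 of the CH and 14 of the HF libraries above the gap. The permutation test of mean log2 CPM, with steer 1797 included, gave differences of -1.98 and -2.55 (100000 resamples, adjusted p = 0.0238 for both over 14 tests). The log2 fold changes of edgeR were -1.62 ± 0.54 and -1.87 ± 0.63 (adjusted p = 0.110 and 0.114), just outside the threshold that 4.22% of 13454 genes passed, and without steer 1797 they were -1.60 and -1.85 (edgeR adjusted p = 0.143 and 0.148). DESeq2 called both genes (adjusted p = 0.0451 and 0.0509), and with the steer as a block LOC768255 alone was called (limma-voom, -2.44, adjusted p = 0.0800).

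Under ZG, with only 6 CH libraries, the log2 fold changes were -1.17 ± 0.77 for GIMAP4 and -1.33 ± 0.94 for LOC768255 (edgeR adjusted p = 1.00 for both), and -1.14 and -1.31 without steer 5612. edgeR called 0% of 13406 genes there, 395 had an unadjusted p under 0.05 and DESeq2 called 14. Under H2 the CH libraries are those in which the genes were chosen, so the breed difference is given without a test. GIMAP4 was at 41.0 ± 54.3 CPM (SD, n = 17) in CH and 193 ± 152 CPM (n = 13) in HF, a log2 fold change of -2.65 ± 0.53 (SE), and LOC768255 was at 26.4 ± 37.9 and 164 ± 135 CPM, a log2 fold change of -3.18 ± 0.61. The background share of genes that edgeR called was 0.633%. The groups overlapped, since 5 CH steers lay above and 2 HF steers below the gap. Without steer 1797 the values were -2.32 and -2.76, and without steer 5612 -2.73 and -3.26.

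Differences between phases were set against a transcriptome in which many genes moved. From H1 to ZG in CH, with 17.8% of 13945 genes called, the log2 fold changes were 0.90 ± 0.68 for GIMAP4 and 0.95 ± 0.79 for LOC768255 (edgeR adjusted p = 0.365 and 0.412). Contrasts with the CH libraries of H2, in which the genes were chosen, are given without a test. From H1 to H2 in CH, where 66.6% of genes were called, the values were -0.97 ± 0.52 and -1.44 ± 0.62. In limma-voom with the steer as a block they were -0.46 and -0.53. The difference of mean log2 CPM was -0.47 and -0.60. In the CH steers with libraries in both phases the direction was mixed. LOC768255 changed by 0.95 in number 1100, 1.60 in 1320, 0.74 in 307 and -0.05 in 364. GIMAP4 changed by 1.06, 0.72, -0.29 and -0.25 in the same order. All but number 1100 lay below the gap in both phases. From ZG to H2 in CH, with 2.82% called, the values were -1.87 ± 0.68 and -2.39 ± 0.79. In HF neither gene passed in any pair of phases: 0.46 ± 0.53 and 0.41 ± 0.62 from H1 to ZG (58.0% of genes called, adjusted p = 0.488 and 0.602), 0.15 ± 0.58 and -0.02 ± 0.67 from H1 to H2 (61.9% called, adjusted p = 0.835 and 0.984), and -0.30 ± 0.57 and -0.42 ± 0.66 from ZG to H2 (7.24% called, adjusted p = 0.821 and 0.778). Without steer 1797 the values from H1 to H2 in HF were -0.13 and -0.40, and without steer 5612 they were 0.30 and 0.14. From ZG to H2 in HF they were -0.59 and -0.80 without steer 1797, and -0.12 and -0.25 without steer 5612. The 4 HF steers with libraries in H1 and H2 were higher in H2 for both genes, by 0.27 to 1.07 log2 units for GIMAP4 and 0.20 to 0.66 for LOC768255. These contrasts share libraries and are not independent of each other.

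**Figure D2:**
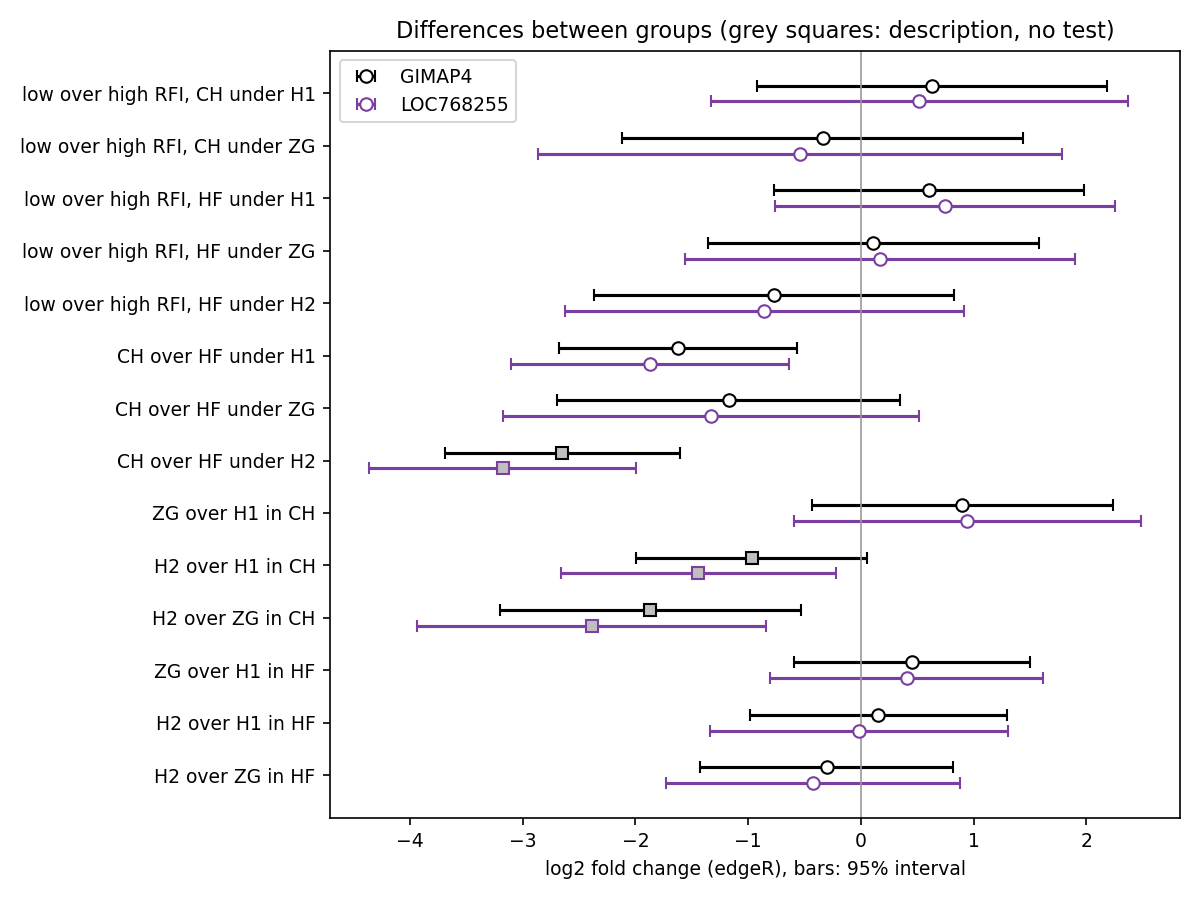
Log2 fold change of GIMAP4 (black) and LOC768255 (purple) in 14 comparisons by edgeR, with 95% intervals; grey squares rest on the CH libraries of H2 that chose the genes and are descriptions, and open circles did not pass an adjusted p of 0.1. The intervals of all 5 RFI comparisons cross 0, and those of CH over HF under H1 lie below 0.

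Libraries of the same steer mostly kept their place. Of 14 steers with libraries in more than 1 phase of a breed, 13 were on the same side of the gap in the earliest and the latest phase, 3 below and 10 above it. All 3 below were CH steers: number 307 had 8.01, 8.70 and 6.55 CPM of GIMAP4 under H1, ZG and H2, number 364 had 5.97 and 4.99 CPM under H1 and H2, and number 1320 had 6.40 and 10.6 CPM. At the other end, HF steer 5632 had 333, 555 and 402 CPM of GIMAP4 and 348, 571 and 436 CPM of LOC768255 under H1, ZG and H2. The exception was steer number 5612, with GIMAP4 at 301 CPM under ZG and 9.98 CPM under H2 and LOC768255 at 257 and 5.18 CPM. Over the 50 other genes its libraries had an r of 0.31, just above the 95th percentile of pairs of different steers, and whether they come from the same animal was not tested. Of the 14 steers, 6 changed RFI group between their phases, among them number 307, and all 6 stayed on the same side of the gap. Above the gap were 38 of 47 HF and 20 of 43 CH libraries, so different HF steers often share a side too. Neither count of steers on the same side was tested against these shares.

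**Figure D3:**
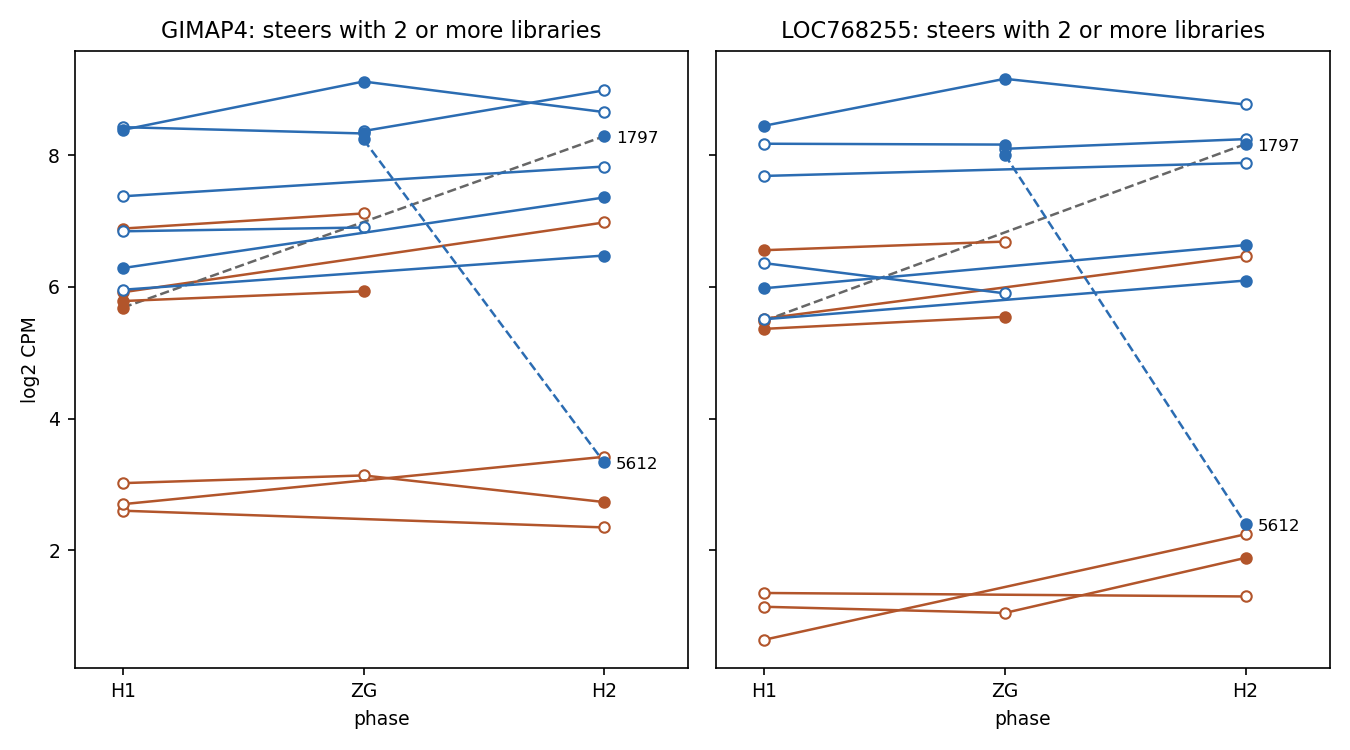
Log2 CPM of GIMAP4 (left) and LOC768255 (right) by phase for the 15 steer numbers with 2 or more libraries; brown lines are CH, blue lines HF, filled points low RFI and open points high RFI. Of 14 steers of a breed, 13 stay on the same side of the gap, number 5612 (dashed) does not, and number 1797 (dashed, grey) is CH under H1 and HF under H2.

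Levels of HF steers above the gap in both the earliest and the latest phase were correlated, a choice that leaves out steer 5612. Among the 7 HF steers above the gap in both phases, deviations from the phase mean in the earliest and latest phase had a Pearson r of 0.93 for GIMAP4 (exact permutation p = 0.00714, adjusted over 8 tests 0.0286) and 0.96 for LOC768255 (exact p = 0.00437, adjusted 0.0286). Spearman rho was 0.82 and 0.86 (exact p = 0.0341 and 0.0238, adjusted 0.0518 and 0.0499). Without the 2 steers farthest from the median, r was 0.91 and 0.996. The 10 steers of both breeds above the gap include number 1100, whose H2 library is among those that chose the genes. They are therefore described without a test, though the adjustment over 8 tests counts them too. Their r was 0.63 for GIMAP4 and 0.71 for LOC768255, with rho of 0.67 and 0.64, falling to an r of 0.43 and 0.55 without the 2 farthest steers. With no means removed, r over these 10 steers was 0.93 and 0.95. The absolute change between phases had a median of 0.36 log2 units for GIMAP4 and 0.26 for LOC768255 and reached 1.07 and 0.95, against an SD between these steers of 1.07 and 1.22 in their earliest phase. The CH steers above the gap in both phases were too few for a value of their own. Since the gap of GIMAP4 by itself was narrower than the 1.5 log2 units set for a split, its agreement was also computed over all 14 steers. That choice was made after the data were seen, and the pairs include CH libraries of H2, which chose the genes. Over these steers r was 0.52 and rho 0.66 (description). The r fell to 0.40 without the 2 farthest steers. Without steer 5612, the steer that differed between phases, these were 0.84 and 0.85 (n = 13, description).

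Set against different steers, the mean squared difference between libraries of the same steer was 0.37 times that between different steers for both genes, where the median over 13945 genes was 0.818 (description). GIMAP4 had rank 882 and LOC768255 rank 899 from the lowest ratio. Without steer 5612 the ratios were 0.101 and 0.122, at rank 37 and rank 68, beside a median of 0.766.

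The members rose and fell together from animal to animal. Their log2 CPM had a Pearson r of 0.99 over 90 libraries (description, since the clusters alone produce a high value). Within breed and phase, above the gap, r was 0.98 in CH under H1 (n = 10), 0.98 in HF under H1 (n = 14), 0.96 in HF under ZG (n = 13) and 0.95 in HF under H2 (n = 11). Spearman rho was 0.99, 0.96, 0.98 and 0.96 in the same order. Every one of these had an adjusted permutation p of 2.5e-05 or lower over 10 tests, close to the smallest p of 1e-05 that the resamples can give. Leaving out steer 1797 gave an r of 0.98 in CH under H1 and 0.95 in HF under H2, and leaving out steer 5612 gave 0.96 in HF under ZG. Without the 2 farthest libraries r was 0.98, 0.98, 0.92 and 0.96. Below the gap the relation was looser, with r of 0.64 and rho of 0.62 in CH under H1 (n = 10, permutation p = 0.0467 and 0.0601, adjusted 0.0519 and 0.0601), and r fell to 0.46 without the 2 farthest libraries. In CH under H2, r below the gap was 0.69 and rho 0.77 over 12 libraries (description). Reads on LOC768255 per read on GIMAP4 ranged from 0.227 to 1.24 with a median of 0.714, and LOC768255 had more reads than GIMAP4 in 11 libraries. The slope of LOC768255 on GIMAP4, both in log2 CPM, was 1.195 over all libraries, so LOC768255 covered the wider range. Gene lengths were not used here, so levels of the 2 genes are not compared per length.

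**Figure D4:**
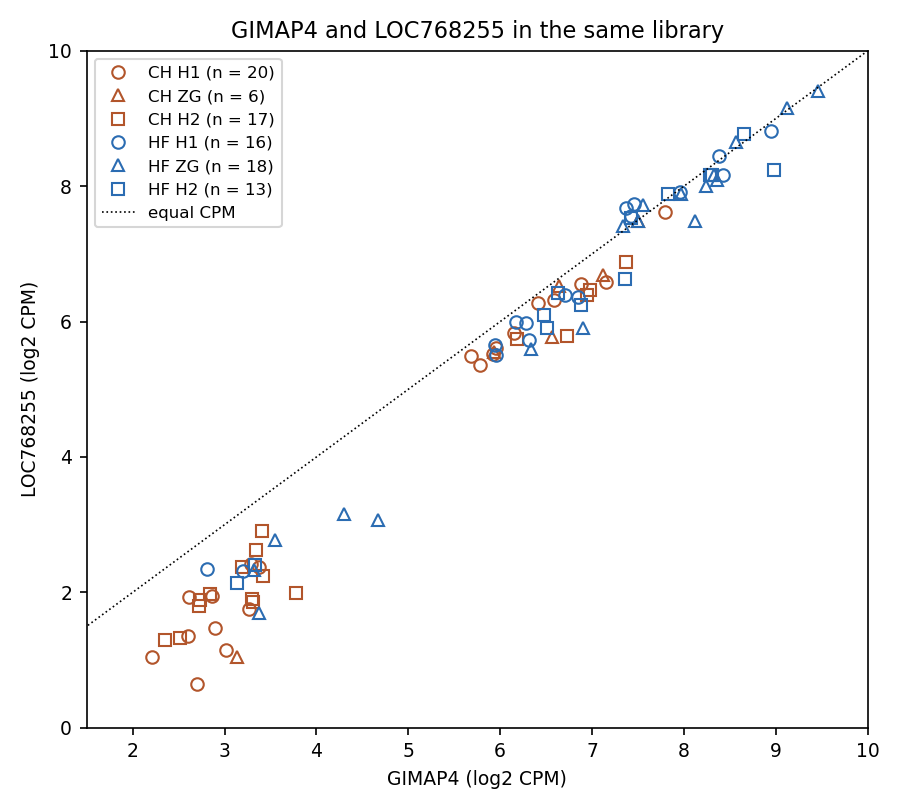
Log2 CPM of LOC768255 against GIMAP4 in the same library, for 43 CH (brown) and 47 HF (blue) libraries, with symbols by phase; the dotted line marks equal CPM. Points form a tight band above the gap and a looser cloud of 32 libraries at the lower left.

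The closest genes in pattern were then listed. After removal of the 12 group means, over 90 libraries, the closest gene to each member among 13944 was the other one (Spearman rho 0.98). GIMAP8, a larger GIMAP protein of lymphocytes, came next (rho 0.63 with GIMAP4 and 0.64 with LOC768255), and LOC511617 followed (0.50 with both). In the reference gene order GIMAP8 lies in the same cluster, with 14 genes between it and LOC768255, and 1 gene lies between it and LOC511617. The next gene, ENSBTAG00000004894, has no name in the files (rho 0.49 and 0.48), and the lowest of the 8 closest genes had a rho of 0.38 with GIMAP4 and 0.40 with LOC768255. The lowest rho of all genes was -0.41 with GIMAP4. REPIN1 and LRRC61, which lie beside the cluster and encode a zinc finger protein and a leucine-rich repeat protein, had a rho of -0.05 and 0.17 with GIMAP4 and 0.05 and 0.24 with LOC768255. None of the 16 different genes that are among the 5 next neighbours on either side of a member has an identifier in the counts that could be matched.

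GIMAP8 ranged from 9.93 to 261 CPM with a median of 21.4, and LOC511617 from 0.464 to 4.43 CPM with a median of 1.90. Within the 58 libraries above the gap, GIMAP8 followed GIMAP4 with a rho of 0.71 and LOC768255 with 0.70. Within the 32 libraries below it, rho was 0.71 with GIMAP4 and 0.30 with LOC768255. LOC511617 had a rho of 0.13 with GIMAP4 above the gap and 0.48 below it. REPIN1 and LRRC61 had a rho of -0.65 and -0.58 with GIMAP4 below the gap, and of -0.25 and 0.04 above it. With LOC768255 these were -0.44 and -0.35 below it, and -0.15 and 0.11 above it. LRRC61 fell to 0 CPM on both sides. All of these are descriptions, in which repeated steers count more than once. No group means were removed for these rhos by side of the gap, so breed, phase and RFI differences can enter them.

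**Figure D5:**
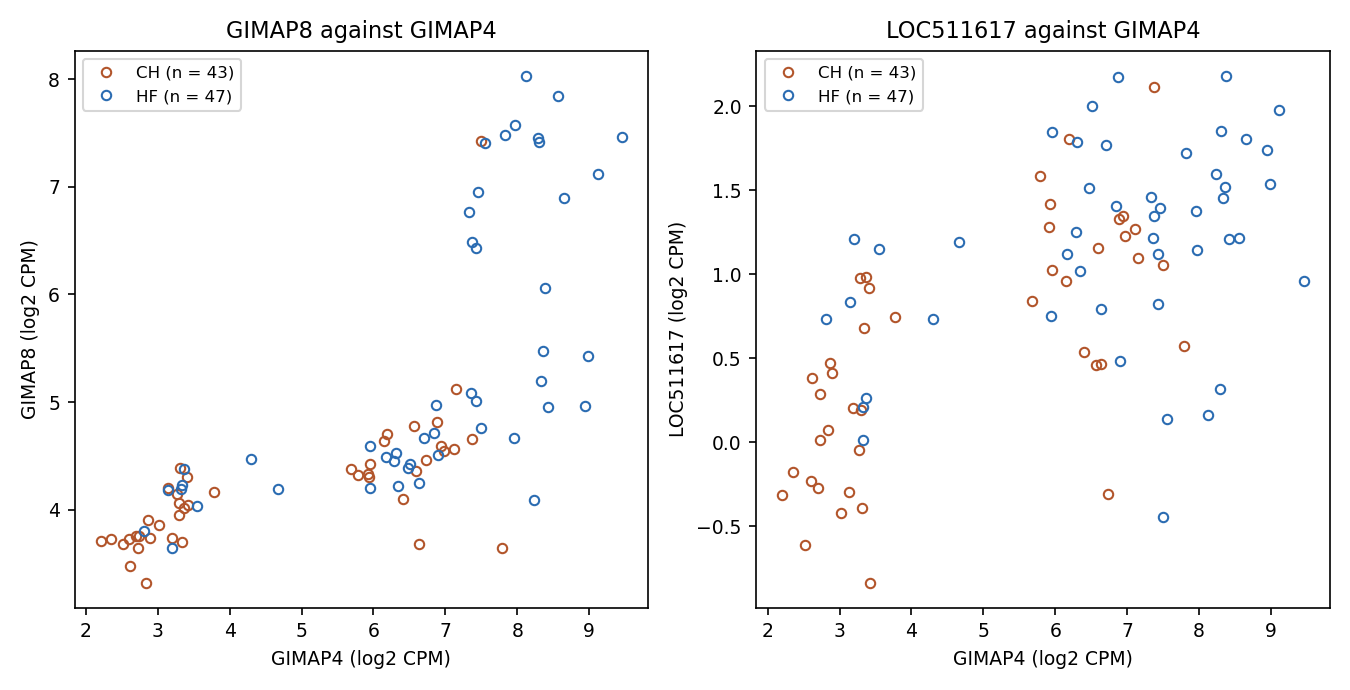
Log2 CPM of GIMAP8 (left) and LOC511617 (right) against GIMAP4 in the same library, by breed. GIMAP8 has a rho of 0.71 with GIMAP4 on each side of the gap, and LOC511617 of 0.13 above it, with no means removed.

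The summed level of leukocyte genes had a rank correlation near 0 with the members over the whole set. A list of 9 such genes was chosen after the values were seen from the names in the files, which come from the study's own RFI results, and is no independent evidence: PTPRCAP, a partner of the CD45 phosphatase, GPR174, FCRL1 and STAP1 of lymphocytes, RGS1, CLEC12A and FCGR2B of leukocyte signalling, DOCK8 and UNC13D. None of the 9 was at 0 in any library. Their summed level ranged from 45.0 to 141 CPM, beside 4.52 to 702 CPM for GIMAP4. The sum, with a median of 81.4 CPM, leaned on FCGR2B and DOCK8, with medians of 37.6 and 17.9 CPM. Each of the other listed genes had a median of 5.68 CPM or lower, so the sum says little about them. With group means removed, its rho was 0.03 with GIMAP4 and 0.01 with LOC768255 over 90 libraries. With no means removed, its rho below the gap was 0.60 with GIMAP4 and 0.52 with LOC768255 (n = 32), and above it -0.20 and -0.19 (n = 58). The hepatocyte gene FGA had a rho of 0.53 and 0.51 below the gap, and of -0.06 and -0.13 above it. Below the gap the listed genes differed in sign, from -0.60 (UNC13D) to 0.75 (CLEC12A) with GIMAP4. Breed, phase and RFI differences can enter these values by side of the gap. In CH, the median of the sum under H1 was 87.4 CPM for low and 66.8 CPM for high RFI, and under H2 it was 68.8 and 71.9 CPM. Single listed genes, with group means removed over 90 libraries, had a rho with GIMAP4 from -0.23 (FCRL1) to 0.20 (CLEC12A). In a liver biopsy, fewer cells of a type and less RNA per cell cannot be told apart, and the part of leukocyte content in the members' levels was not tested.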

How the data were processed

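The authors sequenced liver RNA of CH and HF steers as single-end reads from a stranded mRNA kit, trimmed the reads, mapped these with STAR (version 2.5.3a in the submitters' processing notes) against build UMD3.1, and counted uniquely mapped reads per gene of the Ensembl annotation. They deposited raw counts of 24616 genes in 90 libraries, with no normalization, and alignment and counting could not be varied here. Breed, phase and RFI status in the labels made the 12 groups. Identifiers were matched to the 352 names that the study's supplementary list gives, and the reference table of ARS-UCD2.0 was used only for the order of genes, since its 37063 rows hold 0 Ensembl identifiers.

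The members and all lists were chosen with earlier results of these data known. Low-count genes were filtered with filterByExpr, leaving 13945 over 12 groups. The test was the quasi-likelihood test of edgeR 4.0.16 (robust, TMM) in R 4.3.3, with Benjamini-Hochberg adjustment over all genes tested and a threshold of 0.1. RFI was fitted in each breed and phase alone, breed within a phase with RFI as a covariate, and phase over all 90 libraries. The SE is the absolute log2 fold change over the square root of F. Levels are CPM with TMM-scaled library sizes, and log2 CPM has a prior count of 2. Single values and correlations were tested by permutation (two-sided, scipy), exactly where a group or a correlation had under 10 values and otherwise with 100000 resamples. Correlations between the members and across phases were tested within clusters of at least 6 libraries, where a gap over 1.5 log2 units with at least 3 libraries on each side separates clusters. The split of LOC768255 was used for both genes, since GIMAP4 by itself did not reach that gap, and other correlations are descriptions. Contrasts and correlations that use the CH libraries of H2 have no test in the text, since these libraries chose the genes. DESeq2 1.42.0, DESeq2 size factors, no filter, one fit of 12 groups, limma 3.58.1 with steer as a block, and leaving out libraries were alternatives. Numbers on repeated libraries are animals in the labels, so they pair samples, and the consensus correlation of the block was 0.126 over all genes. The scripts were tested on simulated data. Genes named beside the members were the GIMAP family, 5 neighbours on each side, the 8 genes of highest Spearman rho, and the marker lists. One gene of the study is not reported here. Each group holds a steer number once, so n counts steers.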

Additional observations from a re-analysis of the deposited data

Results flagged for a closer look

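Of 18 sets examined (9 groups of 4 to 10 libraries, 2 genes), 5 held a library that stood apart from the rest of its group by an outlier rule. The usual rate of that rule, about 1 in 20, does not apply to these genes. The genes were chosen for their spread and fall into clusters, and the 2 genes share their libraries, so these flags are no independent evidence. Each was the lowest library of a high RFI HF group and lay below the gap. Steer 5613 under H1 had 6.90 CPM of GIMAP4 with the next steer at 61.7 CPM, and 5.01 CPM of LOC768255 with the next at 45.4 CPM. Steer 5609 under H2 had 8.73 CPM of GIMAP4 with the next steer at 90.8 CPM, and 4.33 CPM of LOC768255 with the next at 59.8 CPM. Steer 1798 under ZG had 25.3 CPM of GIMAP4, the highest value below the gap, with the next steer at 119 CPM. None of these steers has a library in another phase here.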

How the results depend on the processing

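Of 277 alternative values of the members, 262 kept their direction and their side of the threshold. This count includes values with the CH libraries of H2, which are descriptions, so it is no test result for them. DESeq2 called the breed difference under H1 for GIMAP4 (-1.61) and LOC768255 (-1.86). As a description, the DESeq2 value from ZG to H2 in CH was -2.37 for LOC768255. From H1 to H2 in CH, GIMAP4 was at -0.98 with DESeq2 and with DESeq2 size factors (description). In limma-voom with a replicate block on steer, LOC768255 was called between breeds under H1 (-2.44), and its difference from H1 to ZG in HF turned to -0.0049. Its values in that fit between breeds under H2 (-2.92) and from H1 to H2 in CH (-0.53) are descriptions. No other tested call of the members changed in the limma-voom fit. That fit differs from edgeR in more than the block, and limma-voom was not run without it, so the part of the block was not tested. From H1 to H2 in HF, GIMAP4 turned to -0.13 without steer number 1797 and LOC768255 to 0.14 without steer number 5612. Leaving out each library of the groups compared in turn, the RFI effect in CH under ZG ranged from -0.91 to 0.22 for GIMAP4 and from -1.14 to 0.31 for LOC768255, positive only without steer 437. In HF under H2 it ranged from -1.33 to -0.47 and from -1.60 to -0.55, and the breed difference under ZG, with each of the 6 CH libraries left out, from -1.45 to -0.94 and from -1.75 to -1.08. The agreement between phases over 10 steers above the gap, a description, was r = 0.71 for LOC768255 with a prior count of 0.5 and r = 0.93 for GIMAP4 with no means removed. The cause of these changes was not tested. Counts of genes called over all genes moved by over 1.5 times in 26 of 108 alternatives. For RFI in CH under H1, edgeR called 2 genes, DESeq2 160 and a fit of 12 groups 4. For RFI in HF under H1 and ZG, edgeR called 0, and a fit of 12 groups 13 and 2. For breed under H1, where edgeR called 4.22% of genes, a fit of 12 groups called 295 genes and the block 266. Under ZG it called 0, with 9 in a fit of 12 groups and 2 with the block, 1 without steer 5612 and up to 7 without 1 CH library. Under H2 it called 82 and DESeq2 158. For RFI in CH under ZG, 1 gene was called without steer 788. For phases in CH, the count from H1 to ZG was 2476, 1616 with no filter and 4025 with the block, and from ZG to H2 393, 260 with no filter and 662 with DESeq2. From ZG to H2 in HF it was 1010, and 593 without steer 5612. Depth bears most on values below the gap, where LOC768255 rested on as few as 31 reads.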
